A study of Caenorhabditis elegans with 2 samples.

Results

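The genes described here are 7 DnaJ genes of Caenorhabditis elegans, dnj-9, dnj-11, dnj-12, dnj-13, dnj-19, dnj-28 and dnj-29, each of which has a binding peak of the homeobox protein CEH-100 close to its transcription start. They are 7 of the 29 protein-coding genes named dnj in the annotation used and 7 of 19973 protein-coding genes in all. They were selected on the measurement itself: a peak summit of the conservative set, the shorter of the authors' 2 thresholded lists made from both replicates, had to lie within 500 bp of an annotated start. By the same rule 1110 of all protein-coding genes (5.56%) had a peak. That the 7 have peaks is therefore a description and no finding.

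The deposited data are peak lists of chromatin immunoprecipitation followed by sequencing (ChIP-seq), from 2 biological replicates of a single group. All animals were young adults aged 64 hours of strain RW12233, grown in synchrony after bleaching and starvation at the first larval stage, and whole animals were used. The strain carries st12233[ceh-100::TY1::EGFP::3xFLAG] on its second chromosome, a CRISPR insertion at ceh-100, and chromatin was precipitated through the EGFP with an anti-GFP antibody. No untagged strain, mutant or other stage was analysed here, so no comparison between conditions was possible and no p-value is given. A strong signal in few cells and a weak signal in many cannot be told apart in whole animals, and the lists carry no expression values.

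DnaJ proteins, also called HSP40 proteins, are partners of the HSP70 chaperones. Their J domain, with a conserved histidine, proline and aspartate (HPD), stimulates the ATPase of HSP70, and the rest of the protein brings clients or places HSP70 at a ribosome, a membrane or another site. Homeobox proteins are transcription factors whose DNA-binding domain in many cases recognises sites with a TAAT core.

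The sequences at the summits of dnj-9, dnj-11 and dnj-13, and a stretch beside that of dnj-19, are shown. They are given for the GCGC that the windows of all 7 genes held. A window runs from 50 bases before to 50 bases after the conservative summit. All are read 5′ to 3′ in the direction of the DnaJ gene, with every GCGC in capitals. The windows are chrII:4851763-4851863 (plus strand) for dnj-9, chrIV:6585544-6585644 (plus strand) for dnj-11 and chrII:11545435-11545535 (plus strand) for dnj-13, on ce11. For dnj-19 the 40 bp that lie outside annotated untranslated sequence are given, chrV:5505213-5505252 (minus strand). They do not include the summit, which is at 5505263.
dnj-9: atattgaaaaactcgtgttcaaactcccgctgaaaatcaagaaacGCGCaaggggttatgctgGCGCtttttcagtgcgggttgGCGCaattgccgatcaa
dnj-11: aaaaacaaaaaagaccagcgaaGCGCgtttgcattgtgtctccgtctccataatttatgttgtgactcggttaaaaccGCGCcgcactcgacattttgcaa
dnj-13: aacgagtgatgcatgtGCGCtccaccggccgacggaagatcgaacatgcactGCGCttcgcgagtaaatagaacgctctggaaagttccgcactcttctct
dnj-19: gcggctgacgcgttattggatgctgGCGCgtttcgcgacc

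GCGC stood in the summit window, these 50 bases to each side, of all 7 genes. The dnj-9 window held 3 copies, those of dnj-11, dnj-13, dnj-19 and dnj-28 held 2 each, and those of dnj-12 and dnj-29 held 1 each. For dnj-19, 1 copy, the one nearer to the summit, lies in the stretch that is not printed. The nearest GCGC lay 2 bp from the summit at dnj-9, dnj-12 and dnj-13, 11 bp at dnj-29, 13 bp at dnj-28, 15 bp at dnj-19 and 25 bp at dnj-11. The motif reads the same on both strands and was chosen after these sequences had been seen. It was found in 3 of the 14 windows centred 300 bp to either side of the 7 summits. The median distance from summit to nearest GCGC was 11 bp over the 7 genes, beside 36 bp over the 936 other conservative peaks within 500 bp of a protein-coding start. Among these 936, 55.1% of summit windows and 11.1% of the 1872 flanking windows held it. GCGC at the summit was therefore frequent at promoter peaks in general, and the 7 genes had it without exception.

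A ranking of hexamers that left the DnaJ peaks out gave hexamers of the same kind. The 5 hexamers with the largest excess of summit windows over flanks in the 936 other peaks all contain GCGC or CGCG, and each was counted on both strands. At least 1 of the 5 was present at dnj-9, dnj-11, dnj-12, dnj-13, dnj-19 and dnj-28, and none was present at dnj-29. In numbers, 6 of 7 windows at DnaJ genes and 1 of their 14 flanks held one, beside 41.6% of the other summit windows and 5.77% of their flanks. GAGCGC was shared by dnj-12, dnj-13, dnj-19 and dnj-28, beside 15.6% of the other summit windows. ACGCGC was shared by dnj-9, dnj-11 and dnj-19, beside 17.1%. The same 3 genes held AACGCG, beside 15.8%. CGCGCC was in the windows of dnj-11, dnj-19 and dnj-28, beside 14.5%. Lastly, AGCGCG was in those of dnj-11 and dnj-28, beside 13.8%. Guanine and cytosine made up 44.6% (dnj-11) to 59.4% (dnj-19) of the windows at the 7 genes, with a mean of 49.6% and of 35.1% in their flanks, beside 47.2% and 36.4% at the other promoter peaks.

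The palindromic homeodomain core TAATTA was in none of the 7 summit windows, and in 1.78% of all 1685 nuclear conservative windows. Its absence was thus the usual state of a summit window. TAATTA was in 1 of the 14 flanks of the 7 summits. At the other promoter peaks, 2.35% of summit windows and 6.73% of flanks held it. The nearest TAATTA lay 165 bp from the summit at dnj-9, 168 bp at dnj-29, 172 bp at dnj-19 and 268 bp at dnj-11, and farther at dnj-12 (550 bp), dnj-13 (563 bp) and dnj-28 (811 bp). The median over the 7 genes was 268 bp, beside 560 bp over the 936 other promoter peaks. The promoters of dnj-9, dnj-11, dnj-19 and dnj-29, taken as 250 bases before to 50 after the start, contained TAATTA, as did 5 of 22 promoters of other dnj genes and 15.6% of all promoters. The shorter TAAT, on either strand, was in the windows of dnj-11 and dnj-29 only, 2 of 7, beside 39.5% of all summit windows. It was in 11 of the 14 flanks of the 7 summits. The same order was seen at the other promoter peaks, where 40.0% of summit windows and 65.3% of flanks held TAAT.

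A pair of heat shock element units, TTCNNGAA, which reads the same on both strands, was in the window of dnj-12 and of no other of the 7 genes. It was in 6.35% of all summit windows. In the promoters, dnj-12 was likewise the 1 of 7 that held it, beside 2 of 22 other dnj promoters and 18.99% of all promoters. GCGC was in the promoters of all 7 genes, 9 of 22 other dnj genes and 28.7% of all genes. Most promoters of the 7 overlap the summit windows from which GCGC was chosen, and the other dnj genes have no peak by the rule. This count is therefore not separate from that choice and is given as a description. Each match is a run of letters and was not tested as a binding site.

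dnj-12 encodes a DnaJ protein of the type that carries a zinc-binding region beside its J domain, as bacterial DnaJ does. Its gene (WBGene00001030) spans 14756904 to 14758790 on the plus strand of chromosome I. The peak, from 14756703 to 14756985, covered the start of the gene, and its summit lay 71 bp upstream, the closest of the 7. The signal, an enrichment value of the authors with no unit, was 284 in replicate 1 and 335 in replicate 2, and 605 in the conservative set, rank 131 of 1685. The irreproducible discovery rate (IDR), the estimated share of irreproducible peaks among those ranked at least as high, was 1e-05, the lowest that the lists give. A start of mtx-1, which encodes metaxin, a mitochondrial import protein, lay 421 bp from the summit on the opposite strand and 492 bp from that of dnj-12.

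dnj-19 encodes a protein of the same type. Its gene (WBGene00001037) spans 5503033 to 5504857 on the minus strand of chromosome V, and the peak spans 5505105 to 5505420. The signal was 105 in replicate 1 and 94.4 in replicate 2, and 194 in the conservative set, rank 478, with an IDR of 2.8e-05. The summit lay 406 bp upstream of dnj-19, the farthest of the 7, and 10 bp inside the annotated first exon of nhr-47, a nuclear hormone receptor gene that runs the other way from a start 396 bp from that of dnj-19. The nearest protein-coding start was thus that of nhr-47. The non-coding genes C24G6.10 and C24G6.12 start 2 bp and 216 bp from the summit.

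dnj-13 encodes a protein of the type with a J domain and no zinc-binding region. Its gene (WBGene00001031) spans 11545701 to 11547360 on the plus strand of chromosome II, and the peak spans 11545340 to 11545618. The signal was 329 in replicate 1 and 310 in replicate 2, and 640 in the conservative set, rank 122, with an IDR of 1e-05. The summit lay 216 bp upstream of the dnj-13 start, in an intron of dhgd-1. It also lay inside a pair of non-coding genes, both named F54D5.22, whose starts are 21 bp and 128 bp away. The nearest other protein-coding start, of the F-box gene F54D5.9, was 657 bp from the summit, so dnj-13 was the one protein-coding gene with a start within 500 bp.

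dnj-11 is named in RefSeq after the mammalian DNAJC family member that acts at ribosomes. Its gene (WBGene00001029) spans 6585871 to 6588186 on the plus strand of chromosome IV, and the peak spans 6585436 to 6585751. The signal was 66.1 in replicate 1 and 57.7 in replicate 2, and 129 in the conservative set, rank 890, the lowest of the 7. The IDR was 0.000713. The summit lay 277 bp upstream of dnj-11 and nearer, at 194 bp, to the start of F38A5.2, a gene for a TraB domain protein on the opposite strand, whose start is 471 bp from that of dnj-11.

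dnj-29 encodes the longest protein of the 7, related to the Sec63 proteins that act in transport into the endoplasmic reticulum. Its gene (WBGene00001047) spans 14104515 to 14113108 on the minus strand of chromosome I, and the peak spans 14113118 to 14113433. The signal was 83.6 in replicate 1 and 50.2 in replicate 2, and 151.72 in the conservative set, rank 692. Its IDR of 0.00109 was the highest of the 7. The summit lay 168 bp upstream of dnj-29 and 360 bp from the opposite start of ndua-2, which encodes a subunit of mitochondrial complex I. A second summit of the joint ranked list, 374 bp upstream of dnj-29, had a signal of 84.7 and an IDR of 0.0201.

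dnj-28 had by far the strongest peak of the 7. Its gene (WBGene00001046) spans 2996488 to 3001382 on the plus strand of chromosome I. The signal was 1682 in replicate 1 and 1906 in replicate 2, and 3537 in the conservative set, rank 10 of 1685 and 5.52 times that of dnj-13, the next of the 7. Among the 943 nuclear peaks within 500 bp of a protein-coding start it was number 8, between the peaks at atad-3, a mitochondrial ATPase gene, with 3643, and at F29B9.11 and the histone demethylase gene jmjd-1.2 with 2605. The peak spans 2995912 to 2996558, which at 647 bp was the widest of the 7, and contained the starts of both dnj-28 and supr-1, which run in opposite directions from starts 574 bp apart. The summit lay 113 bp upstream of dnj-28 and 461 bp from supr-1.

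dnj-9 had no start of another gene, coding or non-coding, within 500 bp of its summit. Its gene (WBGene00001027) spans 4852056 to 4857820 on the plus strand of chromosome II, and the peak, the narrowest of the 7 at 158 bp, spans 4851759 to 4851916. The signal was 163 in replicate 1 and 127 in replicate 2, and 292 in the conservative set, rank 295, with an IDR of 1e-05. The summit lay 243 bp upstream of dnj-9. The nearest other start was that of T23B7.3 at 1624 bp.

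**Figure D1:**
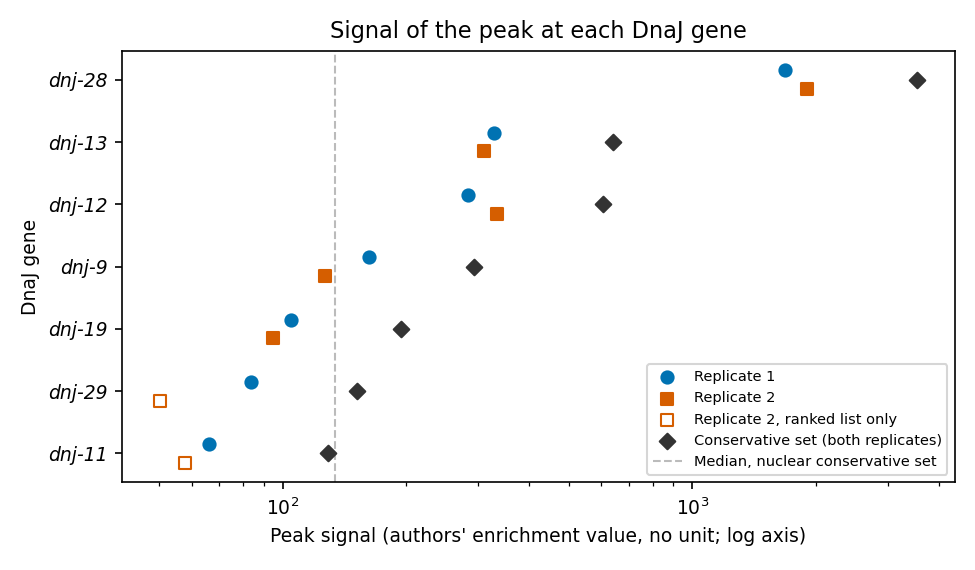
Peak signal (authors' enrichment value, no unit, log axis) at each of the 7 DnaJ genes in replicate 1 (circles), replicate 2 (squares) and the conservative set (diamonds); open symbols are replicate peaks present in the ranked list only, and the dashed line is the median of nuclear conservative peaks, 134. The conservative signal was 3537 at dnj-28 and 129 at dnj-11, and replicate 2 is open at dnj-29 and dnj-11.

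The conservative signals of the 7 genes spread over a 27.4-fold range around a median of 292. The median of all 1685 nuclear conservative peaks was 134, and that of the 943 near protein-coding starts was 142. The peaks at dnj-28, dnj-13, dnj-12 and dnj-9 were above 211, the third quartile of all, and dnj-11 alone was below 134. The signals of the conservative set are on another scale than those of each replicate and were not averaged with them. Some adjacent genes in the order were close. The peaks at dnj-13 and dnj-12 were at 640 and 605 in the conservative set. They changed places between replicates, with dnj-13 the higher in replicate 1 and dnj-12 in replicate 2. Likewise dnj-29 was above dnj-11 in replicate 1, at 83.6 and 66.1, and below it in replicate 2, at 50.2 and 57.7.

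Both replicates had a ranked peak at all 7 genes. Replicate 1 passed the authors' threshold at all 7 and replicate 2 at 5, with dnj-11 and dnj-29 left out. In replicate 2 the IDR of those peaks was 0.0384 at dnj-11 and 0.0224 at dnj-29, beside 0.00238 and 0.000181 in replicate 1. Of all nuclear conservative peaks, 918 (54.5%) were in both thresholded lists. The log2 ratio of replicate 2 over replicate 1 was positive at dnj-12 (0.24) and dnj-28 (0.18) and negative at the other 5, where it was -0.09 at dnj-13, -0.15 at dnj-19, -0.20 at dnj-11, -0.36 at dnj-9 and -0.74 at dnj-29. Over the 1670 nuclear conservative peaks matched in both ranked lists, the median was 0.03, with a 5th percentile of -0.58 and a 95th percentile of 0.69. The ratio at dnj-29 was thus outside that range and those at the other 6 genes were inside it. Some weak conservative peaks matched the same replicate peak as a stronger one, so some replicate values enter that range more than once.

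**Figure D2:**
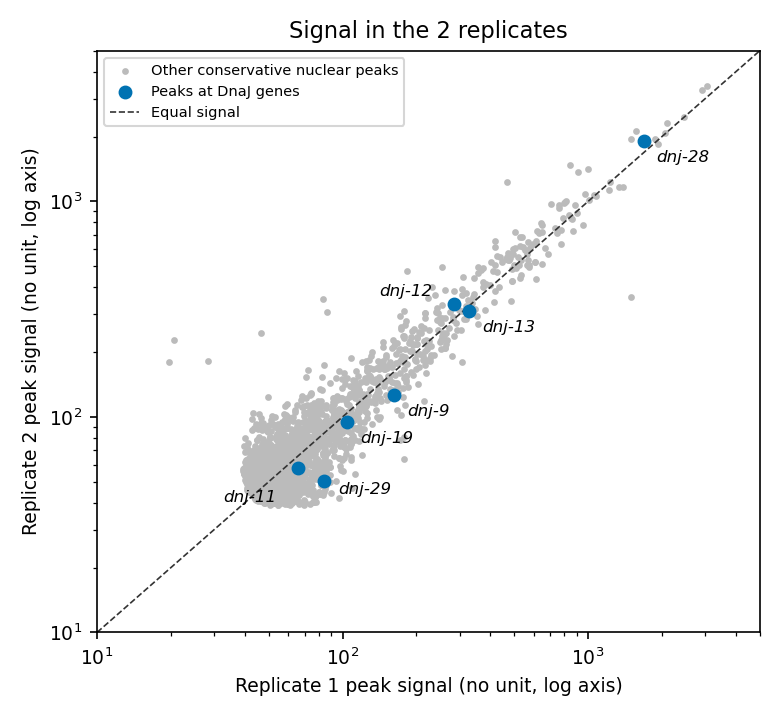
Peak signal in replicate 2 against replicate 1 (no unit, log axes) for the 7 DnaJ genes (blue, named) and the other nuclear conservative peaks matched in both ranked lists (grey); the dashed line marks equal signal. dnj-12 and dnj-28 lie above the line and the other 5 below it, with dnj-29 the farthest, at 50.2 in replicate 2 and 83.6 in replicate 1.

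Summit positions in the replicates were close at these genes. The replicate summits were 3 bp apart at dnj-28, 6 bp at dnj-11, 8 bp at dnj-19, 17 bp at dnj-12, 25 bp at dnj-13, 34 bp at dnj-9 and 45 bp at dnj-29. The median of 17 bp stood beside 18 bp over all matched nuclear conservative peaks, of which 90% were within 67 bp.

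All 7 summits were upstream of the DnaJ start, at 71 to 406 bp with a median of 216 bp, and so were the nearest summits of 948 of the 1110 protein-coding genes with a peak (85.4%), at a median distance of 188 bp. Against the nearest protein-coding start of any gene, 6 of the 7 summits were upstream (85.7%), at a median distance of 168 bp, beside 758 of the 943 promoter peaks (80.4%) at 175 bp. These shares are near each other. For 5 genes, dnj-9, dnj-12, dnj-13, dnj-28 and dnj-29, the DnaJ start was the nearest protein-coding start. For dnj-11 and dnj-19 it was that of F38A5.2 and of nhr-47. With the starts of non-coding genes included, the DnaJ start was nearest for 4 genes, since F54D5.22 was nearer at dnj-13. A second protein-coding gene shared the peak within 500 bp at 5 of 7 genes (71.4%), beside 484 of the 1110 protein-coding genes with a peak (43.6%). In 4 of them, dnj-11, dnj-12, dnj-28 and dnj-29, the summit lay between starts that run apart on opposite strands (57.1%), beside 433 of 1110 (39.0%). A peak shared by several genes can bring any of them into the list, as at dnj-11 and dnj-19, so these counts are not separate from the rule and are given as a description. From these peaks alone, binding at one gene of such a pair and binding at the other cannot be told apart.

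**Figure D3:**
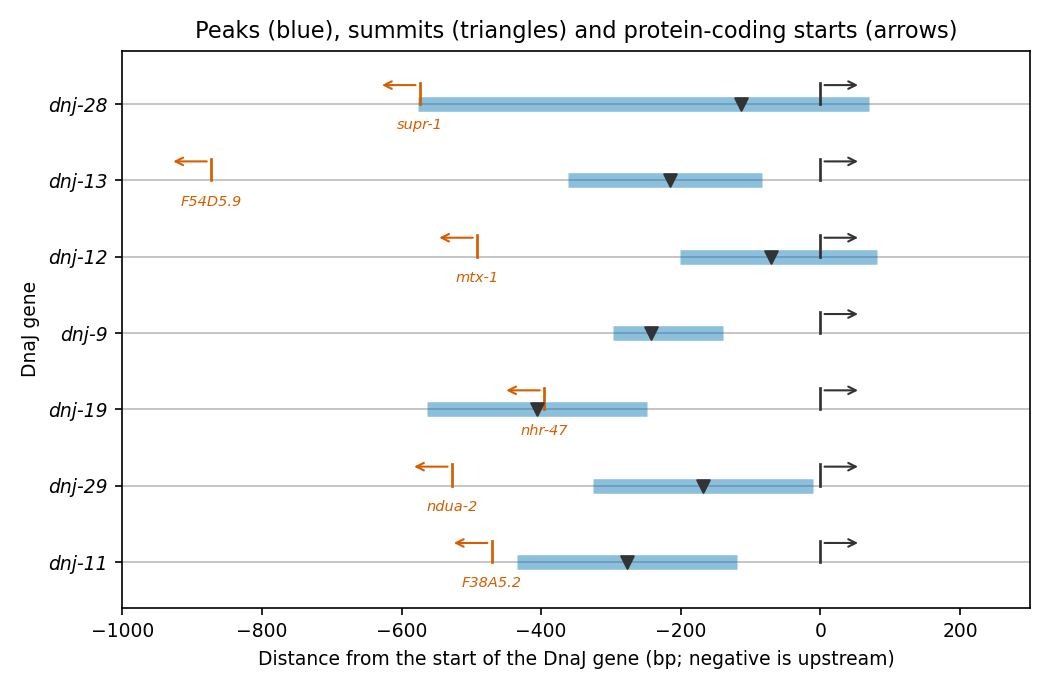
Peaks (blue bars), summits (triangles) and protein-coding starts (arrows; DnaJ gene black, neighbour orange) by distance in bp from the DnaJ start, drawn in the direction of the DnaJ gene. The 7 summits lie 71 to 406 bp upstream of the DnaJ start (85.4% of all protein-coding genes with a peak also have their nearest summit upstream), and 6 of the 7 genes have a neighbour that runs the opposite way from a start within 1000 bp.

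Opposite starts were also counted at up to 1000 bp from the DnaJ start. Of the neighbours found, only that of dnj-13, F54D5.9, did not already share the peak within 500 bp. A start on the opposite strand lay within 1000 bp upstream of 6 of the 7 genes (85.7%), at 396 bp for dnj-19, 471 bp for dnj-11, 492 bp for dnj-12, 528 bp for dnj-29, 574 bp for dnj-28 and 873 bp for dnj-13. The exception was dnj-9, whose nearest such start was 9813 bp away. The same held for 7 of the 22 other dnj genes (31.8%), for 529 of the 1110 protein-coding genes with a conservative summit (47.7%) and for 3658 of all 19973 (18.3%). This measure is not separate from the rule either.

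None of the 22 other dnj genes had a conservative summit within 500 bp of a start, as follows from the rule that set the 7 apart. The last inside the limit was dnj-19 at 406 bp. The first outside it was dnj-2 at 3156 bp, followed by dnj-5 at 5024 bp and dnj-23 at 5742 bp. Few protein-coding genes of any kind lie just outside the limit, with 5.56% of all having a summit within 500 bp and 7.28% within 1000 bp. The distance between dnj-19 and dnj-2 is therefore given as a description. The median over the 22 was 14371 bp. The 7 genes lie on 4 chromosomes, with 3 on I, 2 on II and 1 each on IV and V, and none on III or X, where 5 and 2 of the others lie.

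**Figure D4:**
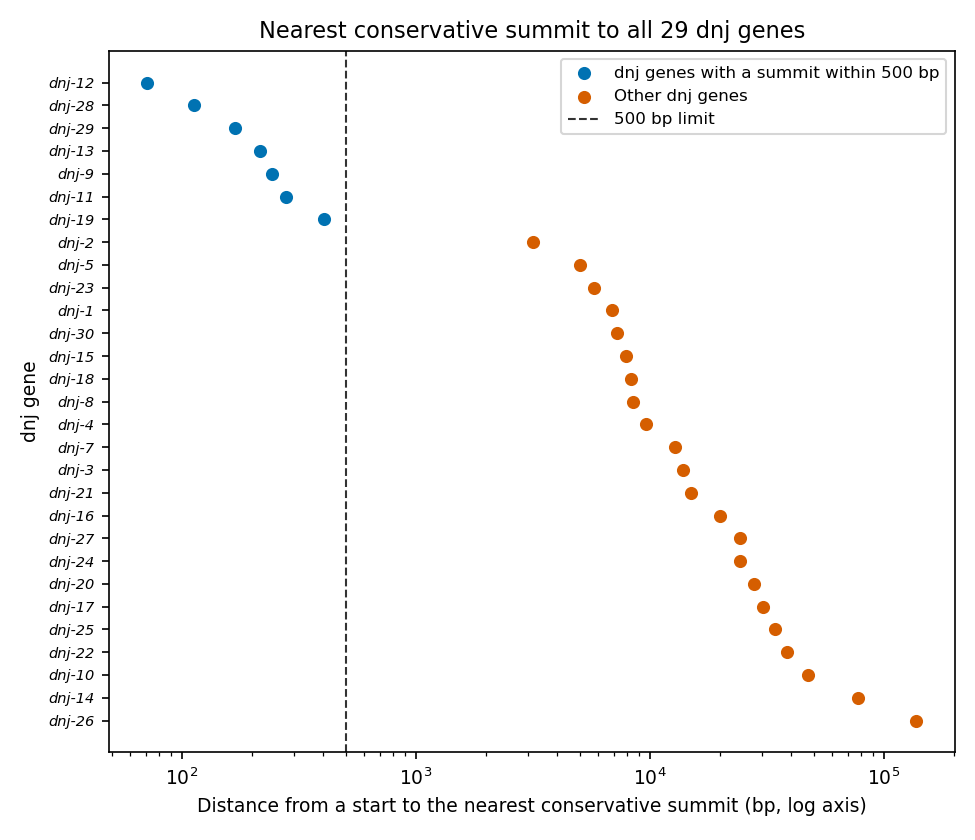
Distance in bp (log axis) from a start to the nearest conservative summit for the 7 DnaJ genes with a summit within 500 bp (blue) and the 22 other dnj genes (orange); the dashed line is the 500 bp limit used to choose the 7. Distances were 71 to 406 bp for the 7 and 3156 to 137387 bp for the 22.

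Below the threshold, the joint ranked list still held a summit within 500 bp of 7 of the 22 other genes. These were dnj-2, dnj-4, dnj-8, dnj-10, dnj-20, dnj-22 and dnj-25, with signals of 33.5 to 71.3, all below the 129 of dnj-11. Their IDR was 0.539 or higher, and 15 genes had no such summit. The highest of these was at dnj-4, with 71.3 in the joint list, 47.8 in replicate 1 and 23.6 in replicate 2. Depth is unknown, so a weaker peak at these genes may lie below what the lists can show.

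The count of listed genes with a peak moved with the list and window. It was 7 in the authors' other thresholded list (6.1% of all protein-coding genes) and 7 in the list of replicate 1 alone (4.15%). It was 5 in the list of replicate 2 alone (4.89%), without dnj-11 and dnj-29, and 6 at an IDR of at most 0.001 (3.79%), without dnj-29. With a window of 200 bp, dnj-12, dnj-28 and dnj-29 remained (2.93%), and with 1000 bp all 7 (7.28%). When a peak counted only for the gene with the nearest start, 5 remained (4.38%), without dnj-11 and dnj-19. The count of other dnj genes was 0 under every one of these settings. For the IDR limit, the 200 bp window and the nearest start this was fixed in advance, since they only narrow the rule that chose the 7.

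The 7 proteins differ in size and in where the J domain lies. In the longest coding sequence of each gene, dnj-9 had 564 residues, dnj-11 589, dnj-12 402, dnj-13 331, dnj-19 439, dnj-28 494 and dnj-29 752. The tripeptide HPD was in all 7, and in 21 of the 22 others, dnj-5 being the exception. It began at residue 32 to 54 in dnj-9, dnj-12, dnj-13 and dnj-19, at 129 and 135 in dnj-11 and dnj-29, and at 408 in dnj-28, whose J domain is therefore near its end. Matches to the zinc-binding repeat CXXCXGXG numbered 3 in dnj-12 and 3 in dnj-19, and among the others only dnj-10 had any. The median length was 494 residues for the 7 and 346 for the 22.

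Pairwise identity was highest among the dnj-12, dnj-13 and dnj-19 proteins when the 7 were compared with each other. dnj-12 and dnj-19 shared 43.5% identical residues over the shorter protein, dnj-13 and dnj-19 shared 42.6%, and dnj-12 and dnj-13 shared 41.4%. The most alike pair with at least 1 of the 7 was dnj-28 and dnj-7, at 53.4% (262 residues), with the HPD of dnj-7 likewise near the end, at residue 407 of 491. The conservative summit nearest to dnj-28 lay at 113 bp with a signal of 3537, and the one nearest to dnj-7 was 12795 bp away. No summit of the joint ranked list was within 500 bp of dnj-7, while the ranked list of replicate 1 had one with a signal of 29.2. That dnj-28 has a conservative peak and dnj-7 has none is set by the rule.

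Partners of DnaJ proteins and regulators of stress responses were examined as lists of 28 genes in all. The lists were drawn up with earlier results of these data known. Of the 28 genes, 11 (39.3%) had a conservative summit within 500 bp of a start, beside 5.56% of all protein-coding genes. In the HSP70 family, which includes the chaperones that J domains act on, it was 5 of 9. F44E5.4 and F44E5.5 share a peak of 395. The cytosolic hsp-1 had 238, the mitochondrial hsp-6 had 220 and hsp-110 had 212. These signals lay between those of dnj-12 (605) and dnj-19 (194). The endoplasmic reticulum gene hsp-4 was just outside, with a summit of 170 at 559 bp.

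In the list of nucleotide exchange factors and co-chaperones it was 4 of 8, 1 of which, enpl-1, is an HSP90 gene. The gene of the exchange factor BAG-1 had a peak of 3822, rank 6, the one partner peak above that of dnj-28. Its replicate signals were 1866 and 1957, beside 1682 and 1906 at dnj-28. C34C12.8, which encodes a homolog of the mitochondrial exchange factor GrpE, had 443. The endoplasmic reticulum HSP90 gene enpl-1, counted in both lists, had 201.2, and unc-23, another gene of the BAG family, had 83.3 with no matched peak in replicate 1. Of 3 HSP90 genes, hsp-90 (345) and enpl-1 had a peak. Of 9 regulators of stress responses, ire-1, a sensor of unfolded protein in the endoplasmic reticulum, had one, with 113, and hsf-1, the heat shock factor gene, had its nearest summit 31851 bp away.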

How the data were processed

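ChIP-seq peaks of tagged CEH-100 were measured in 2 replicates, each labelled with a biosample of its own. The peak signal is the authors' enrichment value, deposited without a unit and not scaled between lists, and the ranked lists hold the authors' −log10 of the global IDR, at most 5. Reads were aligned to ce11, per the labels, from fragments of 200 to 800 bp. Which aligner and peak caller were used is not given in the sources used here. No read counts were used, so depth is unknown.

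Conservative peaks numbered 1707, of which 22 mitochondrial ones were left out. Thresholded peaks numbered 1182 (replicate 1) and 1360 (replicate 2). Summits were set against 29784 protein-coding starts of Ensembl release 115 on WBcel235, the assembly of ce11, with 500 bp as the limit. Replicate peaks matched when they overlapped by 1 bp. Sequences came from the RefSeq genome of that assembly, and proteins from each gene's longest coding sequence.

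The genes, lists and motifs were chosen with earlier results of these data known, and GCGC and the hexamers after the sequences were seen. By rule, the text names all 7 genes and those with a start within 500 bp of their summits. It also names the 3 next dnj genes, listed partners and regulators with a peak and the genes ranked beside dnj-28. Other genes were named after their values were seen. The computation of distances was checked on 200 summits planted at known offsets from annotated starts, and 200 came out as planted. Peak coordinates, annotation and the matching of replicates were not checked in this way. Python 3.11.15, numpy 2.4.6, pandas 2.3.3, matplotlib 3.10.9 and Biopython 1.88 were used. Alternatives were other lists, IDR limits, windows, starts and replicate summits.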

Additional observations from a re-analysis of the deposited data

How the results depend on the processing

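Of the counts and medians given for the dnj genes, 37 of 41 recomputed values stayed within 1.5 times the main count or within its spread. Some of these could not have moved, such as the count of other dnj genes under limits narrower than the rule. The 4 that moved were the listed genes with a peak in a 200 bp window (3 in place of 7), the TAAT count in windows of 51 bp (1 in place of 2) and of 100 bases to each side (5), and TTCNNGAA in a 51 bp window (0 in place of 1). With each replicate's list alone, 5 to 7 of the listed genes and 0 of the others had a peak, the DnaJ start was nearest for 4 to 5, and the median rank was the top 10.1% to 22.3% of a list, the first over 5 genes only. The rank in percent of a single gene shifted from list to list in 24 of 26 recomputed values. The limit here was narrower than 1.5 times. Some of these shifts were small, as at dnj-11 from 52.8% to 57.3% among peaks within 500 bp of a start. Others were larger, as at dnj-9 from 17.5% to 26.4% in the list of replicate 2 alone. TAATTA stayed at 0 and GCGC at 6 or 7 in every window and replicate list tried. No paired analysis was possible because there is a single group and no test was made. At dnj-11 and dnj-29 replicate 1 passed the threshold of its own list and replicate 2 did not. The conservative peaks there come from both replicates jointly, with an IDR of 0.000713 at dnj-11 and 0.00109 at dnj-29. Read depth, control peaks and expression were not analysed here, and the causes of the differences were not tested.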
